A study of Homo sapiens with 18 samples.

Results

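Aminoacyl-tRNA synthetases, the enzymes that load each amino acid onto its tRNA, were followed as 36 genes in SW620 cells, 20 for the cytosolic and 16 for the mitochondrial enzymes. The genes came from a list of names, with the mitochondrial ones ending in 2, a rule that uses no measured value. All 36 had a row under their older symbols among the 26485 gene symbols of the counts, and all 36 were among the 12832 genes kept by a filter of a CPM above 1, which is the count scaled to the size of the library, in at least 3 libraries. SW620, a human colon cancer line, received a scramble siRNA or siRNA against Lonp1 (siLonp1), the mitochondrial protease encoded by LONP1. Ctrl cells stayed at 37 °C, HS cells spent 1 h at 42 °C, and HS+REC cells spent 1 h at 42 °C followed by 1 h back at 37 °C. The mRNA of each of these 6 groups was sequenced in 3 libraries, 18 in all. The study's methods describe the libraries of a group as independent biological replicates, and p-values measure the spread between them. The siRNA sequence used for RNAseq is not named in the sources used here.

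In the cytosol each amino acid has its own synthetase, with EPRS as a fusion of the glutamate and proline enzymes and FARSA and FARSB as the subunits of the phenylalanine enzyme. Mitochondria translate the few proteins of their own genome with a separate set of synthetases that nuclear genes encode, although GARS and KARS serve both compartments. Genes of many cytosolic synthetases are known targets of ATF4, the transcription factor of the integrated stress response, which binds the C/EBP-ATF response element.

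The promoters of the synthetases, as RefSeq gives them for GRCh38.p14 (250 bases before to 50 after the gene start), were searched on both strands for this element, spelled TGATGNAA. A promoter was found for 30 of the 36 genes, all except DARS, LARS, VARS, YARS, AARS2 and VARS2. Those of AARS, CARS, IARS, MARS, NARS and TARS held the element, 6 of 16 cytosolic genes with a promoter (37.5%), as did that of YARS2 among 14 mitochondrial genes (7.1%), against 3.62% of 35116 promoters. Heat shock element pairs, spelled GAANNTTC or TTCNNGAA, were in 2 of the 16 cytosolic (12.5%) and 2 of the 14 mitochondrial promoters (14.3%), against 13.49% of all promoters. A match describes the letters of the window only. The 30 bases around each of the 7 matches are shown because the cytosolic genes that held the element include TARS, CARS and NARS, which had the largest rises after HS+REC against Ctrl, and the capitals mark the match.
AARS, chr16:70289675-70289704, plus strand: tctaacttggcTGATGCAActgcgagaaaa
CARS, chr11:3057407-3057436, plus strand: ttcctagaatcTGATGCAAccgccgccccg
IARS, chr9:92293692-92293721, plus strand: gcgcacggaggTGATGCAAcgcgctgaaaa
MARS, chr12:57488053-57488082, minus strand: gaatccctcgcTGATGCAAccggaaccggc
NARS, chr18:57621804-57621833, minus strand: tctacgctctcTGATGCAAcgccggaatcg
TARS, chr5:33440956-33440985, minus strand: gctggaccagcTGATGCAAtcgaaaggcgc
YARS2, chr12:32756076-32756105, minus strand: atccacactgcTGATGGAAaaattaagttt
All 6 cytosolic matches read TGATGCAA, and that of YARS2 read TGATGGAA. With the gene start counted as 0 and in the direction of the gene, the first base of the match was at -2 in CARS, -4 in MARS, -13 in IARS, -187 in AARS, -197 in YARS2, 2 in TARS and 14 in NARS. These offsets hold for the RefSeq start used. By the gene bounds of GENCODE v44 the windows of AARS, CARS, IARS, MARS, NARS and TARS lie within the gene. MARS begins there at base 57475445, well before its window. The windows of TARS and NARS, where the match follows the start, and that of YARS2 were added after their values had been seen.

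Library totals ran from 30815860 to 47279297 counts. LONP1 was lower with siLonp1, at -3.43 on the log2 scale in Ctrl, at -4.19 in HS and at -3.01 in HS+REC, which checks the labels of the siRNA. HSPA1A, an inducible chaperone gene with a near-identical copy, HSPA1B, rose by 7.11 in scramble and 6.90 in siLonp1 cells after HS, which checks the labels of the heat. All 8 epithelial markers were detected. They summed to between 9263 and 9679 CPM in Ctrl scramble and 10315 and 11009.9 in Ctrl siLonp1, to between 9842 and 10253 in HS scramble and 11566 and 12133 in HS siLonp1, and to between 8759.8 and 10156 and between 8759 and 10865 CPM in HS+REC. The 3 endothelial markers (1 passed the filter) summed to between 0.631 and 1.53 CPM. The 5 fibroblast markers (2 passed the filter) summed to between 8.98 and 11.3 CPM in Ctrl, 16 and 20.2 in HS and 30.7 and 31.8 in HS+REC scramble cells. In siLonp1 cells the sums were between 11.5 and 13.7, 15 and 21.0, and 34.4 and 37.1 CPM. This order came from COL1A1, at a mean of 9.21 in Ctrl scramble and 33.4 CPM in HS+REC siLonp1. COL3A1 was at 0 in all libraries and COL1A2 and DCN did not exceed 0.0511 and 0.163 CPM. The 4 leukocyte markers (2 passed the filter) summed to between 11.2 and 13.6 CPM in scramble and between 13.6 and 19.7 CPM in siLonp1 libraries. Most of this was CD68, with PTPRC and CD3E at no more than 0.0741 and 0.0509 CPM.

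In Ctrl scramble cells the cytosolic synthetases were expressed above their mitochondrial counterparts. Levels are compared between genes as CPM per kb of the canonical GENCODE transcript. The median was 72.7 CPM per kb over the 20 cytosolic and 18 over the 16 mitochondrial genes. KARS, the lysine enzyme that serves both compartments, was highest at 405 ± 3.62 (SD, n = 3 libraries), followed by AARS (alanine) at 232 ± 5.81 and GARS (glycine) at 231 ± 12.6, which do not differ beyond their spread. FARSB was the lowest cytosolic gene at 24.3 ± 0.774 CPM per kb and IARS2 (isoleucine) the highest mitochondrial one at 59.3 ± 1.03. PARS2, the mitochondrial proline enzyme, had the lowest level of all at 4.64 ± 0.300. Among 13 amino acids with 1 cytosolic and 1 mitochondrial gene, the cytosolic gene was the higher in all 13. The ratio ran from 1.67 for IARS over IARS2 to 25.1 for AARS over AARS2, with a median of 5.48. These ratios rest on 1 transcript length per gene and are descriptions without a test.

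**Figure D1:**
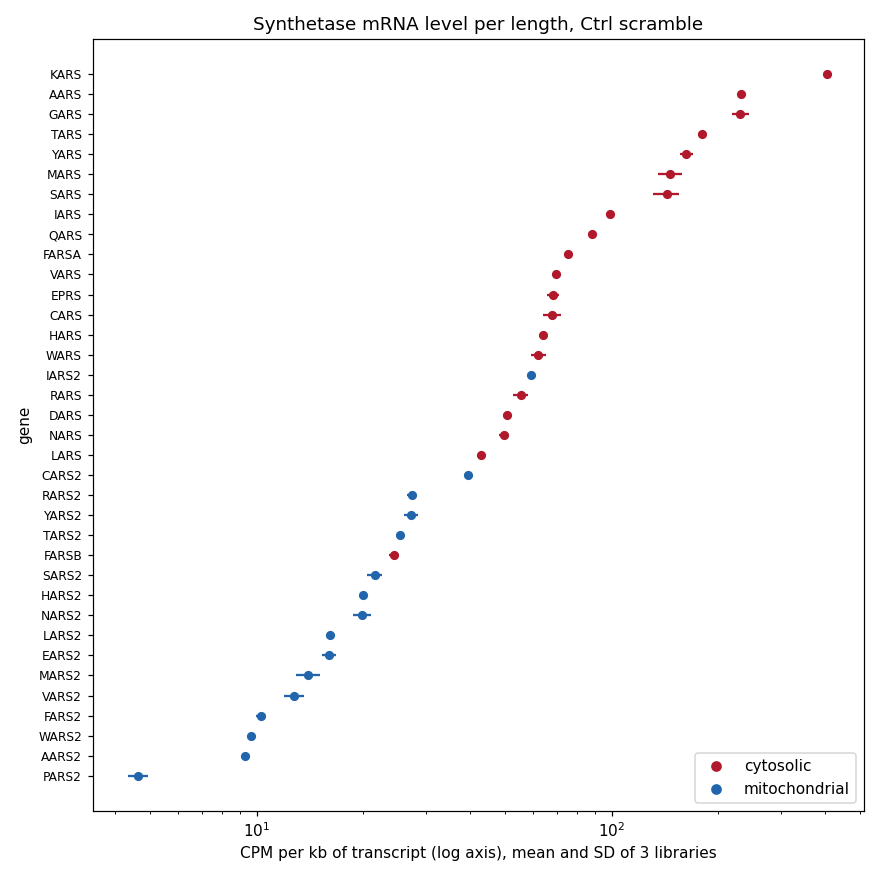
Level of each of the 36 synthetase genes in Ctrl scramble cells, as CPM per kb of transcript on a log axis (point, mean of 3 libraries, and bar, SD), with cytosolic genes in red and mitochondrial genes in blue. Most cytosolic genes lie above most mitochondrial genes, but the classes interleave. The cytosolic genes run from FARSB at 24.3 to KARS at 405, and the mitochondrial genes from PARS2 at 4.64 to IARS2 at 59.3. FARSB lies below IARS2, CARS2 (39.3), RARS2 (27.3), YARS2 (27.3) and TARS2 (25.3).

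The classes moved apart across the 6 groups. The 20 cytosolic genes together took 6207 to 6537 CPM in the Ctrl scramble libraries and 7361 to 7605 CPM in the HS+REC siLonp1 libraries, whereas the 16 mitochondrial genes took 945 to 969 and 760 to 779 CPM. The ratio of these sums was 6.68 ± 0.223 in Ctrl scramble, 6.79 ± 0.197 in HS scramble and 7.97 ± 0.267 in HS+REC scramble (SD, n = 3 libraries). In siLonp1 cells it was 7.45 ± 0.182 in Ctrl, 7.96 ± 0.141 after HS and 9.80 ± 0.309 after HS+REC. The lowest HS+REC siLonp1 library, at 9.45, lay above the highest of the other 15 libraries, at 8.24, while the Ctrl and HS libraries of scramble cells overlapped. In these bulk libraries fewer cells of a type and less RNA per cell cannot be told apart.

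**Figure D2:**
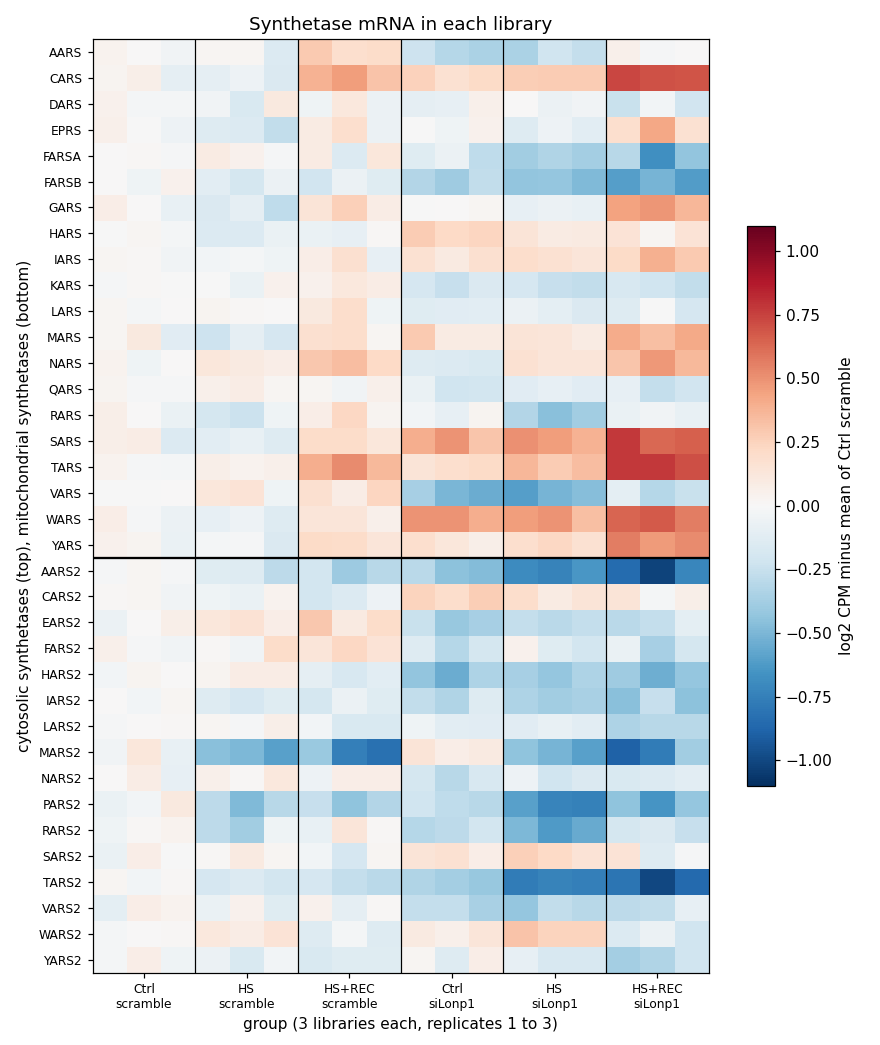
Log2 CPM of each synthetase in each of the 18 libraries minus the mean of its 3 Ctrl scramble libraries, with red above and blue below that mean, cytosolic genes at the top and mitochondrial genes at the bottom. CARS, SARS, TARS and WARS are red in all HS+REC siLonp1 libraries, while AARS2, MARS2 and TARS2 are blue there.

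To follow the class rather than its most abundant genes, the median over the class of these log2 differences was taken in each library. The cytosolic median was between -0.03 and 0.03 in Ctrl scramble and between -0.06 and -0.03 in HS scramble, and it lay between 0.07 and 0.19 in HS+REC scramble and between 0.16 and 0.18 in HS+REC siLonp1. Thus, with CPM scaled by TMM factors, the cytosolic median of every HS+REC library was above that of every Ctrl or HS library. These factors, which adjust the library sizes, differed between groups. They were 1.05 to 1.06 in Ctrl scramble, 0.992 to 1.00 in HS+REC scramble and 0.934 to 0.958 in HS+REC siLonp1. Library size alone lowers the HS+REC medians against Ctrl scramble, so this full separation depends on the scaling. The mitochondrial median was between -0.02 and 0.02 in Ctrl scramble, between -0.14 and -0.12 in HS+REC scramble, and between -0.32 and -0.18 over the 9 siLonp1 libraries. Each siLonp1 library had a lower mitochondrial median than each scramble library, whatever the temperature. The summed fibroblast markers, led by COL1A1, were likewise highest in the HS+REC libraries. The summed leukocyte markers, led by CD68, were lowest in scramble libraries except that HS scramble replicate 2 was level with Ctrl siLonp1 replicate 1. The epithelial sums were higher with siLonp1 without overlap in Ctrl and HS. The part of these markers in the medians was not tested.

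**Figure D3:**
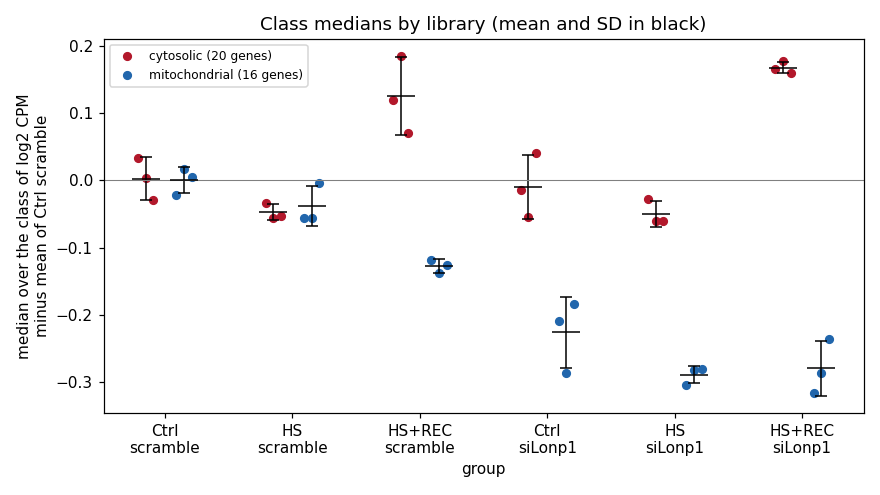
Median over the 20 cytosolic (red) and the 16 mitochondrial synthetases (blue) of log2 CPM minus the Ctrl scramble mean, by group (points, 3 libraries, black, mean and SD). With CPM scaled by TMM factors, the cytosolic medians are highest in HS+REC with either siRNA (0.07 to 0.19). The mitochondrial medians are lowest in the 9 siLonp1 libraries (-0.32 to -0.18).

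The comparison of HS with Ctrl asked which synthetases changed during heat itself. In scramble cells HS lowered 3 of 20 cytosolic and 5 of 16 mitochondrial synthetases and raised 0 of either class, where 18.6% of all 12832 genes were called higher and 17.3% lower. Genes were called by edgeR's quasi-likelihood test at a false discovery rate (FDR, Benjamini-Hochberg) of at most 0.05. No member was higher at an unadjusted p under 0.05 either, or called higher by DESeq2. The number of cytosolic genes called lower was 6 with library size only, 5 by DESeq2 and 1 with CPM above 1 in all libraries. MARS2 (chr2:197705369-197708395, plus strand, hg38 with GENCODE v44), which charges the methionine tRNA that also starts mitochondrial translation, stood at 41.0, 46.0 and 39.8 CPM in Ctrl and 30.7, 30.0 and 28.0 CPM in HS. Its log2 fold change was -0.52 (standard error 0.10, adjusted p = 0.000391), and the groups did not overlap. PARS2 stood at 10.4, 10.7 and 11.7 CPM in Ctrl and 8.95, 7.80 and 8.82 in HS, again without overlap, and fell by 0.36 (standard error 0.09, adjusted p = 0.00215). The other mitochondrial genes called were RARS2 (arginine) at -0.23 ± 0.07 (standard error), TARS2 (threonine) at -0.18 ± 0.06 and IARS2 at -0.16 ± 0.06. Among cytosolic enzymes EPRS changed by -0.19 ± 0.07, GARS by -0.18 ± 0.06 and MARS (methionine) by -0.17 ± 0.07. The class medians, -0.05 for cytosolic and -0.04 for mitochondrial genes, were close to each other and to the median of all genes, -0.01.

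The calls of HS in scramble cells depended on single libraries, except for those of MARS2 and PARS2, which held when any 1 of the 18 libraries was left out. EPRS lost its call without 6 libraries (adjusted p = 0.0524 to 0.2), MARS without 7 libraries (adjusted p = 0.0538 to 0.237), and GARS without Ctrl scramble replicate 1 or 2 or HS scramble replicate 3. The cytosolic count was 0 without Ctrl scramble replicate 1 or 2 and 1 without HS scramble replicate 1 or HS+REC siLonp1 replicate 1. Without HS scramble replicate 3 all 3 of these genes lost their calls, and RARS alone was called (-0.19, adjusted p = 0.0246). Without Ctrl scramble replicate 3 the count was 5, with RARS and SARS added (adjusted p = 0.047 and 0.0324). Among mitochondrial genes IARS2 lost its call without 11 libraries (adjusted p = 0.0524 to 0.142), RARS2 without Ctrl scramble replicate 3 or HS scramble replicate 1 or 2, and TARS2 without Ctrl scramble replicate 1 or 3 or HS scramble replicate 3. Hence 2 genes were called without Ctrl scramble replicate 3 and 3 without Ctrl scramble replicate 1 or any of the HS scramble libraries.

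In siLonp1 cells HS raised 2 and lowered 3 cytosolic genes, and raised 1 and lowered 5 mitochondrial genes, 11 of 36 (30.6%), where 20.2% of all genes were called higher and 22.1% lower. RARS, the cytosolic arginine enzyme, stood at 115, 110 and 120 CPM in Ctrl and 94.3, 85.5 and 90.2 CPM in HS, and NARS (asparagine) at 124, 123 and 123 CPM in Ctrl and 154, 150 and 150 in HS. Neither pair of groups overlapped, with RARS lower in HS at -0.36 (standard error 0.06, adjusted p = 8.17e-05) and NARS higher by 0.30 (standard error 0.05, adjusted p = 9.41e-05). MARS2 fell again, from 46.5, 44.3 and 45.3 to 31.0, 29.6 and 28.0 CPM, a log2 change of -0.62 (standard error 0.10, adjusted p = 3.48e-05). Of the others, PARS2 changed by -0.42 ± 0.09, TARS2 by -0.38 ± 0.06, RARS2 by -0.29 ± 0.07 and AARS2 by -0.28 ± 0.07 (standard errors). MARS2, PARS2, RARS2 and TARS2 were thus lower after HS with either siRNA, in arms that share no library, as were 13.0% of all genes. No member was higher in both, where 14.5% of all genes were. The remaining calls were those of FARSA at -0.21, lost without 6 libraries (adjusted p = 0.061 to 0.179), HARS at -0.14, lost without 12 libraries (adjusted p = 0.0519 to 0.133), TARS at 0.15, lost without Ctrl siLonp1 replicate 1 or 2 or HS siLonp1 replicate 1 or 3, and WARS2 at 0.17, lost without Ctrl siLonp1 replicate 1 or 2 or HS siLonp1 replicate 1. The cytosolic count was then 2 without Ctrl siLonp1 replicate 1 or 2 or HS siLonp1 replicate 1 or 3, and 3 without HS siLonp1 replicate 2 or HS scramble replicate 3. With library size only, TARS and WARS2 lost their calls (adjusted p = 0.117 and 0.101), so that 1 cytosolic gene was higher and 4 lower and 0 and 8 mitochondrial genes, with 38.5% in place of 47.7% of all calls higher.

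The next comparison asked what remained or appeared after 1 h of recovery. In scramble cells 8 cytosolic synthetases rose against Ctrl and 0 fell, while 1 mitochondrial gene rose and 4 fell, with 21.8% of all genes called higher and 20.5% lower. At an unadjusted p under 0.05, FARSB (-0.13) was the only cytosolic gene lower, and DESeq2 called it lower. TARS (chr5:33440696-33468091, plus strand, hg38), the threonine enzyme, stood at 493, 474 and 472 CPM in Ctrl, at 500, 493 and 500 after HS and at 633, 688 and 614 after HS+REC. CARS, the cysteine enzyme, stood at 190, 194 and 174 CPM in Ctrl, at 174, 179 and 167 after HS and at 242, 256 and 231 after HS+REC. In both genes the HS+REC libraries were above all Ctrl and HS libraries, and the change against Ctrl was 0.43 (standard error 0.05, adjusted p = 3.96e-07) for TARS and 0.38 (standard error 0.05, adjusted p = 4.44e-06) for CARS. NARS rose from 141, 133 and 138 to 169, 174 and 160 CPM, or by 0.29 (standard error 0.05, adjusted p = 0.000128). AARS rose from 818, 799 and 778 to 972, 906 and 918 CPM, or by 0.22 (standard error 0.06, adjusted p = 0.00285). These 4 genes did not overlap between the groups, which says little of genes picked for large changes. Their calls held when any 1 of the 18 libraries was left out. YARS (tyrosine) changed by 0.18 ± 0.05 (standard error), SARS (serine) by 0.17 ± 0.06, VARS (valine) by 0.17 ± 0.07 and GARS by 0.16 ± 0.06. YARS, SARS and GARS lost their calls without Ctrl scramble replicate 3 and VARS without 6 libraries (adjusted p = 0.0505 to 0.151) and with RLE size factors, DESeq2 or library size only (adjusted p = 0.0615, 0.0544 and 0.290), and 4 cytosolic genes were then called without Ctrl scramble replicate 3. SARS was also lost without HS+REC scramble replicate 1 or 2, and GARS without Ctrl scramble replicate 2 or HS+REC scramble replicate 2. Scaled by library size only, 4 cytosolic genes were higher and 2 lower, and the share of higher genes among all genes called was 34.9% in place of 51.5%.

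Of the mitochondrial synthetases, MARS2, AARS2, TARS2 and PARS2 fell and EARS2 rose. The number lower was 8 by DESeq2 and 9 at an unadjusted p under 0.05, rules for which the share of all genes lower is not given here. MARS2 stood at 31.7, 25.1 and 23.9 CPM in HS+REC scramble cells, below every Ctrl library, and the change against Ctrl was -0.65 (standard error 0.10, adjusted p = 1.82e-05). AARS2, the mitochondrial alanine enzyme, went from 44.1, 45.2 and 43.9 CPM in Ctrl to 40.4, 40.2 and 36.4 in HS and 38.7, 33.6 and 36 in HS+REC, with no overlap between Ctrl and HS+REC, and fell by 0.30 (standard error 0.07, adjusted p = 0.00195). TARS2 went from 70.1, 67.5 and 69.7 CPM to 60.7, 57.5 and 56.4, or -0.25 ± 0.06, and PARS2 from 10.4, 10.7 and 11.7 CPM to 9.13, 8.03 and 8.72, or -0.34 ± 0.09 (standard errors). All 4 kept their calls when any 1 library was left out. EARS2, the mitochondrial glutamate enzyme, rose by 0.20 ± 0.06, and lost its call without Ctrl scramble replicate 1 or HS+REC scramble replicate 1. Scaled by library size only, 0 mitochondrial genes were higher and 10 lower, in the fit where the share of higher genes among all calls fell as given above.

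In siLonp1 cells HS+REC raised 12 cytosolic synthetases and lowered 3, with 24.6% and 26.6% of all genes called higher and lower, and it raised 0 and lowered 8 mitochondrial ones. No mitochondrial gene was higher at an unadjusted p under 0.05 or by DESeq2. TARS stood at 530, 546 and 556 CPM in Ctrl, at 617, 584 and 608 after HS and at 823, 823 and 785 after HS+REC, a rise of 0.57 (standard error 0.05, adjusted p = 2.44e-09) over Ctrl. NARS stood at 124, 123 and 123, then 154, 150 and 150, and then 169, 191 and 176 CPM, a rise of 0.53 (standard error 0.05, adjusted p = 1.61e-08). GARS stood at 560, 564 and 570 CPM in Ctrl, at 529, 538 and 532 after HS and at 764, 786 and 725 after HS+REC, a rise of 0.43 (standard error 0.06, adjusted p = 1.92e-06). All HS+REC libraries of these genes were above all Ctrl and HS libraries of the same arm. CARS rose by 0.50 ± 0.05 and YARS by 0.39 ± 0.05 (standard errors), and AARS, EPRS, IARS, MARS, SARS, VARS and WARS were the other 7 called higher, between 0.15 and 0.31. FARSA fell from 124, 131 and 113 to 111, 85.6 and 101 CPM (-0.31 ± 0.08) and FARSB from 131, 125 and 136 to 108, 116 and 108 CPM (-0.24 ± 0.06), so that both subunits of the phenylalanine enzyme were lower, and HARS (histidine) changed by -0.14 ± 0.05. IARS lost its call without 12 libraries (adjusted p = 0.0509 to 0.198), HARS without Ctrl siLonp1 replicate 1 or 3 or HS+REC siLonp1 replicate 2, and WARS without Ctrl siLonp1 replicate 3 or HS+REC siLonp1 replicate 2. Scaled by library size only, the counts were 9 higher and 4 lower for cytosolic genes and 0 and 10 for mitochondrial genes, with 35.1% in place of 48.0% of all calls higher.

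Among mitochondrial genes of siLonp1 cells, MARS2 went from 46.5, 44.3 and 45.3 CPM in Ctrl to 22.8, 24.7 and 32.4 in HS+REC and changed by -0.77 (standard error 0.10, adjusted p = 1.48e-06). TARS2 went from 54.9, 53.4 and 51.9 CPM in Ctrl to 40.5, 41.6 and 41.0 in HS and 39.7, 34.4 and 38.1 in HS+REC, a change of -0.51 (standard error 0.06, adjusted p = 1.04e-07). Neither gene overlapped between Ctrl and HS+REC, and in MARS2 replicate 3 of HS+REC siLonp1, at 32.4 CPM, stood above all 3 HS libraries. AARS2 changed by -0.45 ± 0.08, YARS2 (tyrosine) by -0.30 ± 0.06, WARS2 (tryptophan) by -0.24 ± 0.06, LARS2 (leucine) by -0.22 ± 0.05, PARS2 by -0.23 ± 0.09 and CARS2 (cysteine) by -0.17 ± 0.06 (standard errors). PARS2 lost its call without Ctrl siLonp1 replicate 1 or 2 or HS+REC siLonp1 replicate 2, and CARS2 without Ctrl siLonp1 replicate 3 or HS+REC siLonp1 replicate 2. In both arms, which share no library, 8 cytosolic genes rose after HS+REC (AARS, CARS, GARS, NARS, SARS, TARS, VARS and YARS) and 4 mitochondrial genes fell (AARS2, MARS2, PARS2 and TARS2), where 18.2% of all genes rose and 17.4% fell in both. In scramble cells GARS, SARS, VARS and YARS were not called with library size only.

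**Figure D4:**
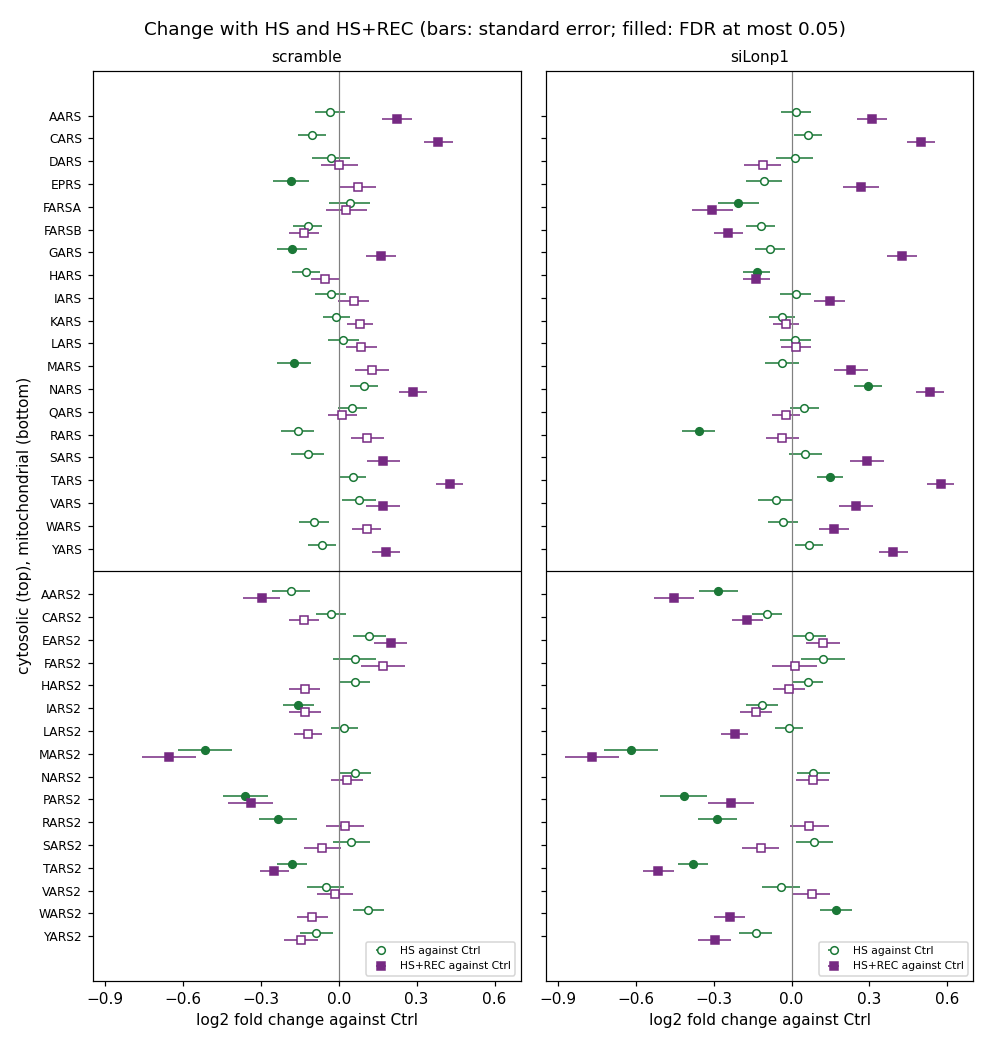
Log2 fold change against Ctrl of each synthetase after HS (green circles) and HS+REC (purple squares), in scramble (left) and siLonp1 cells (right), with standard errors and filled symbols for an FDR of at most 0.05. Most cytosolic genes (top) lie further right after HS+REC than after HS, up to 0.57 for TARS in siLonp1 cells, while MARS2 at the bottom is the leftmost point of each panel, down to -0.77.

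Against HS instead of Ctrl, recovery raised 11 cytosolic genes in scramble cells (14.2% of all genes higher) and 12 in siLonp1 cells (16.3%), and lowered 0 in each arm (12.7% and 15.6% lower). At an unadjusted p under 0.05, 0 cytosolic genes were lower in scramble cells and 1, FARSB (-0.12), in siLonp1 cells, and 0 in each arm by DESeq2. These contrasts share the HS+REC libraries with those above, as the HS and HS+REC contrasts of an arm share its Ctrl libraries, and the values are given side by side. CARS rose by 0.49 (standard error 0.05, adjusted p = 3.3e-07) in scramble and 0.44 (standard error 0.05, adjusted p = 1.09e-06) in siLonp1 cells. GARS rose by 0.34 (standard error 0.06, adjusted p = 8.87e-05) and 0.51 (standard error 0.06, adjusted p = 3.18e-07), from 503, 523 and 462 to 621, 672 and 594 CPM in scramble cells. TARS rose by 0.37 ± 0.05 and 0.43 ± 0.05, MARS from 350, 381 and 360 to 461, 467 and 415 CPM in scramble cells (0.30 ± 0.07), SARS by 0.29 ± 0.06 and 0.24 ± 0.06, and YARS by 0.25 ± 0.05 and 0.32 ± 0.05 (standard errors, scramble before siLonp1). RARS, which was lower after HS in siLonp1 cells, rose again from 94.3, 85.5 and 90.2 to 112, 115 and 111 CPM, or by 0.32 ± 0.06, and EPRS rose from 302, 319 and 307 to 378, 447 and 375 CPM, or by 0.37 ± 0.07. AARS, CARS, EPRS, GARS, MARS, NARS, RARS, SARS, TARS, WARS and YARS, 11 of 20, rose in both arms, as 10.4% of all genes did, though EPRS and NARS lost the call in scramble cells without HS+REC scramble replicate 2 (adjusted p = 0.0541 and 0.0504) and WARS in siLonp1 cells without HS siLonp1 replicate 3 (adjusted p = 0.0822). In scramble cells NARS and WARS also lost the call with library size only (adjusted p = 0.0763 and 0.0574) and with only the groups compared (adjusted p = 0.0716 and 0.0512). With library size only 9 cytosolic genes were higher in scramble cells, and 36.3% in place of 52.7% of all calls were higher. In siLonp1 cells FARSB was then called lower (-0.16, adjusted p = 0.0362).

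Exons of MARS overlap those of DDIT3, an ATF4 target, on the opposite strand, and the strand setting of the counting is not given in the sources used here. DDIT3 rose after HS by 1.02 and 1.45 and from HS to HS+REC by 0.62 and 0.42 in scramble and siLonp1 cells, and its part in the values of MARS was not tested.

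Of the mitochondrial genes, RARS2 rose from HS to HS+REC by 0.26 (standard error 0.07, adjusted p = 0.0103) in scramble and 0.35 (standard error 0.07, adjusted p = 0.000627) in siLonp1 cells, and WARS2 changed by -0.22 (standard error 0.06, adjusted p = 0.00896) and -0.41 (standard error 0.06, adjusted p = 9.96e-06). WARS2 went from 33.4, 31.7 and 31.8 CPM in HS to 24.1, 25.7 and 23.1 in HS+REC siLonp1 cells, and RARS2 from 43.5, 39.7 and 41.8 to 53.5, 54.9 and 51.4 CPM, both without overlap. RARS2 was thus lower after HS and near its Ctrl level after HS+REC, at 0.03 ± 0.07 and 0.07 ± 0.07 against Ctrl (standard errors), neither of them called. In both arms 10.4% of all genes rose and 9.35% fell from HS to HS+REC. HARS2 (histidine) changed by -0.19 ± 0.06 in scramble cells, and LARS2 by -0.21 ± 0.05 and SARS2 (serine) by -0.21 ± 0.07 in siLonp1 cells, 3 of 16 called in scramble and 4 of 16 in siLonp1 cells. Of all genes 14.2% rose and 12.7% fell in scramble cells and 16.3% and 15.6% in siLonp1 cells, so that in this fit the members were called no more often than all genes. With library size only the counts were 5 and 7. The shares of all genes called in that fit are not given here, so this comparison holds for the main fit only. With only the groups compared, 1 was called in scramble cells, with RARS2 and HARS2 lost (adjusted p = 0.0597 and 0.0526). Without HS scramble replicate 2 or HS+REC scramble replicate 2 only 1 of the 3 remained, with RARS2 lost in both fits (adjusted p = 0.0949 and 0.0723) and HARS2 likewise (adjusted p = 0.0573 and 0.0679), and RARS2 was also lost without HS scramble replicate 1. SARS2 lost its call without HS siLonp1 replicate 1 or 2 or HS+REC siLonp1 replicate 2 or 3.

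Silencing of Lonp1 was compared with scramble within each condition, in pairs of groups that share no library. In Ctrl cells siLonp1 raised 6 and lowered 6 of the 20 cytosolic genes and raised 1 and lowered 10 of the 16 mitochondrial genes, 23 of 36 (63.9%), where 26.3% of all genes were called higher and 22.9% lower. The median change was -0.01 for cytosolic and -0.24 for mitochondrial genes, and 0.01 over all genes. WARS, the tryptophan enzyme, stood at 173, 163 and 157 CPM with scramble and 231, 231 and 217 with siLonp1. SARS stood at 285, 290 and 247 CPM with scramble and 361, 383 and 336 with siLonp1, and VARS at 287, 286 and 289 CPM with scramble and 223, 203 and 197 with siLonp1. These genes did not overlap between the siRNAs, with WARS higher by 0.46 (standard error 0.06, adjusted p = 7.07e-07), SARS higher by 0.40 (standard error 0.06, adjusted p = 2.35e-05) and VARS lower at -0.47 (standard error 0.07, adjusted p = 4.41e-06). FARSB was lower at -0.33 ± 0.06 (standard error), from 164, 159 and 170 to 131, 125 and 136 CPM, and AARS at -0.30 ± 0.06, from 818, 799 and 778 to 683, 644 and 625 CPM. CARS, HARS, IARS and TARS made up the rest of those higher, between 0.15 and 0.24, and KARS, NARS and QARS (glutamine) the rest of those lower, between -0.20 and -0.15. IARS lost its call without 8 libraries (adjusted p = 0.05 to 0.135), NARS without Ctrl scramble replicate 1 or 3 or Ctrl siLonp1 replicate 2 or 3, and QARS without Ctrl scramble replicate 1 or Ctrl siLonp1 replicate 2 or 3. Scaled by library size only, 4 cytosolic genes were higher and 8 lower and 1 and 11 mitochondrial genes, with 39.2% in place of 53.4% of all calls higher.

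HARS2 stood at 48.2, 50.1 and 49.2 CPM with scramble and 36.4, 33.8 and 38.8 with siLonp1 in Ctrl, a difference of -0.44 (standard error 0.06, adjusted p = 2.75e-06). AARS2 stood at 44.1, 45.2 and 43.9 CPM with scramble and 36.2, 32.6 and 32.0 with siLonp1, a difference of -0.40 (standard error 0.07, adjusted p = 9.25e-05). TARS2 (chr1:150487414-150507602, plus strand, hg38) stood at 70.1, 67.5 and 69.7 CPM with scramble and 54.9, 53.4 and 51.9 with siLonp1, a difference of -0.37 (standard error 0.06, adjusted p = 1.24e-05). In each of these genes every siLonp1 library was below every scramble library. EARS2 was lower at -0.34 ± 0.06 and VARS2 (valine) at -0.29 ± 0.07 (standard errors), and FARS2 (phenylalanine), IARS2, NARS2 (asparagine), PARS2 and RARS2 changed by between -0.27 and -0.21. CARS2, the mitochondrial cysteine enzyme, was the only one of the 16 called higher, at 73.0, 73.4 and 70.4 CPM with scramble and 85.5, 82.8 and 86.9 with siLonp1, or 0.24 (standard error 0.06, adjusted p = 0.00179). FARS2 lost its call without 5 libraries (adjusted p = 0.0598 to 0.164), each of the 6 compared except Ctrl siLonp1 replicate 1, and PARS2 without Ctrl scramble replicate 3 (adjusted p = 0.0723). HARS and HARS2 lie head to head on chromosome 5 with overlapping ends on opposite strands, and HARS was higher, at 0.24 ± 0.05. The part of the overlap in these values was not tested.

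After HS, siLonp1 raised 8 and lowered 7 cytosolic genes and raised 2 and lowered 10 mitochondrial genes, 27 of 36 (75.0%), where 28.1% of all genes were called higher and 26.7% lower. VARS was lower with 313, 319 and 279 CPM in scramble and 189, 202 and 207 in siLonp1 cells, or -0.61 (standard error 0.07, adjusted p = 9.64e-08). SARS was higher, with 251, 257 and 247 CPM in scramble and 388, 376 and 356 in siLonp1 cells, or 0.57 (standard error 0.06, adjusted p = 1.58e-07). Neither gene overlapped between the siRNAs. WARS differed by 0.53 ± 0.06, CARS by 0.38 ± 0.06 and FARSA by -0.40 ± 0.08 (standard errors), with FARSA at 146, 141 and 135 CPM in scramble and 105, 109 and 105 in siLonp1 cells. HARS, IARS, MARS, TARS and YARS were the others called higher, between 0.20 and 0.29, and AARS, FARSB, KARS, QARS and RARS the others called lower, between -0.33 and -0.17. TARS2 stood at 60.9, 62.2 and 59.9 CPM with scramble and 40.5, 41.6 and 41.0 with siLonp1, lower at -0.57 (standard error 0.06, adjusted p = 3.12e-08), and AARS2 at 40.4, 40.2 and 36.4 CPM with scramble and 27.5, 26.7 and 28.5 with siLonp1, lower at -0.50 (standard error 0.07, adjusted p = 6.64e-06). HARS2 differed by -0.44 ± 0.06, EARS2 by -0.39 ± 0.06, PARS2 by -0.33 ± 0.09 and RARS2 by -0.32 ± 0.07, and IARS2, LARS2, NARS2 and VARS2 were also lower, between -0.28 and -0.13. Of the 2 mitochondrial genes that were higher, CARS2 lost its call without replicate 1 or 2 of HS scramble or replicate 1 of HS siLonp1, and WARS2 without 5 libraries (adjusted p = 0.0502 to 0.123), and the call of LARS2 was lost without 11 libraries (adjusted p = 0.0508 to 0.112). Scaled by library size only, 7 cytosolic genes were higher and 8 lower and their median was -0.04 in place of 0.06, 0 mitochondrial genes were higher and 12 lower, and 35.0% in place of 51.3% of all calls were higher.

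After HS+REC, siLonp1 raised 10 and lowered 8 cytosolic genes and raised 1 and lowered 11 mitochondrial genes, 30 of 36 (83.3%), where 26.8% of all genes were called higher and 27.3% lower, with class medians of 0.13 and -0.20. WARS stood at 180, 180 and 171 CPM with scramble and 255, 263 and 242 with siLonp1, and SARS at 314, 314 and 298 CPM with scramble and 467, 424 and 430 with siLonp1. FARSA stood at 146, 123 and 149 CPM with scramble and 111, 85.6 and 101 with siLonp1, and FARSB at 142, 158 and 150 CPM with scramble and 108, 116 and 108 with siLonp1. In all 4 genes the siRNAs did not overlap, with WARS and SARS higher by 0.52 (standard error 0.06, adjusted p = 9.95e-08) and 0.51 (standard error 0.06, adjusted p = 5.51e-07), and FARSA and FARSB lower at -0.49 (standard error 0.08, adjusted p = 1.79e-05) and -0.44 (standard error 0.06, adjusted p = 9.18e-07). VARS was lower at -0.39 ± 0.07 (standard error). CARS, EPRS, GARS, HARS, IARS, MARS, TARS and YARS were the others called higher, between 0.16 and 0.33, and AARS, KARS, LARS, QARS and RARS the others called lower, between -0.30 and -0.17. TARS2 stood at 60.7, 57.5 and 56.4 CPM with scramble and 39.7, 34.4 and 38.1 with siLonp1, and AARS2 at 38.7, 33.6 and 36 CPM with scramble and 24.8, 21.9 and 26.9 with siLonp1. The differences were -0.64 (standard error 0.06, adjusted p = 5.29e-09) and -0.56 (standard error 0.07, adjusted p = 1.56e-06), and for TARS2 this was the largest difference by siLonp1 among the 36 genes in the 3 conditions. EARS2 differed by -0.42 ± 0.06, FARS2 by -0.37 ± 0.08 and HARS2 by -0.32 ± 0.06, CARS2 was higher by 0.20 ± 0.06, and IARS2, LARS2, NARS2, RARS2, VARS2 and YARS2 were lower, between -0.25 and -0.16. Without HS+REC scramble replicate 2 the calls of LARS (leucine), RARS, NARS2 and RARS2 were lost, and without HS+REC scramble replicate 3 those of EPRS and NARS2. EPRS also needed HS+REC siLonp1 replicate 2, RARS replicate 3 of that group, and VARS2 replicates 1 and 2 of that group and HS+REC scramble replicate 1, while HARS was lost without 4 libraries (adjusted p = 0.05 to 0.0631) and YARS2 without 5 libraries (adjusted p = 0.0534 to 0.121). With only the groups compared, EPRS, HARS, LARS, RARS, CARS2, NARS2, VARS2 and YARS2, 8 of the 30, lost their calls (adjusted p = 0.0536 to 0.104). Scaled by library size only, 8 cytosolic genes were higher and 9 lower and 0 and 12 mitochondrial genes, with 37.4% in place of 49.6% of all calls higher.

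**Figure D5:**
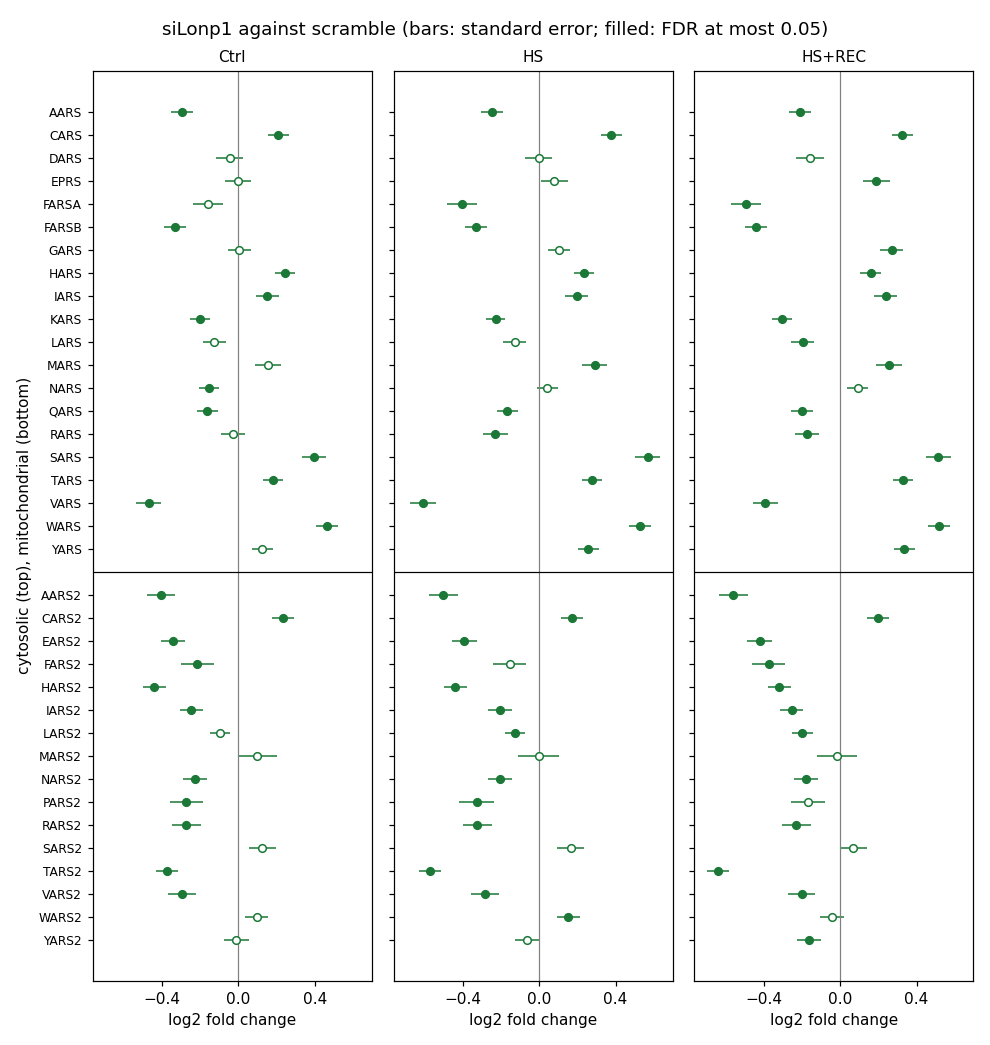
Log2 fold change of siLonp1 against scramble for each synthetase in Ctrl, HS and HS+REC cells (points, with standard errors, filled for an FDR of at most 0.05). Most mitochondrial genes (bottom) lie left of 0 in all 3 panels, with TARS2 reaching -0.64, whereas cytosolic genes (top) lie on both sides, from VARS at -0.61 to SARS at 0.57 in HS.

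CARS, HARS, IARS, SARS, TARS and WARS were higher with siLonp1 in all 3 conditions, and AARS, FARSB, KARS, QARS and VARS lower in all 3. AARS2, EARS2, HARS2, IARS2, NARS2, RARS2, TARS2 and VARS2 were lower in all 3 conditions, and CARS2 was higher in all 3. Thus 6 and 5 of 20 cytosolic and 1 and 8 of 16 mitochondrial genes were higher and lower throughout, where 18.1% and 16% of all genes were. With library size only, IARS lost its call in Ctrl and HS (adjusted p = 0.314 and 0.168), TARS in Ctrl (adjusted p = 0.0788), HARS in HS+REC (adjusted p = 0.150) and CARS2 in HS and HS+REC (adjusted p = 0.268 and 0.0586). MARS2, the mitochondrial gene with the largest fall after heat, was called in none of the 3 conditions, at 0.10 ± 0.10, -0.00 ± 0.11 and -0.02 ± 0.11 (standard errors, Ctrl, HS and HS+REC), nor was SARS2. With only the groups compared, however, SARS2 was called higher with siLonp1 in HS (0.16, adjusted p = 0.0297). So it was without HS+REC scramble replicate 2 or 3 or HS+REC siLonp1 replicate 1 or 2 (adjusted p = 0.0344 to 0.0484). DARS, the aspartate enzyme, was the only one of the 36 called in none of the 9 contrasts between groups, with values between -0.16 and 0.03. In other fits DARS was called lower with siLonp1 in HS+REC. These were library size only (-0.23, adjusted p = 0.00951) and the fits without HS scramble replicate 3, HS+REC scramble replicate 3 or HS+REC siLonp1 replicate 2 (adjusted p = 0.0366, 0.0472 and 0.0151). Library size only also called it lower for HS+REC in siLonp1 cells (adjusted p = 0.0276).

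Whether siLonp1 changed the response to heat was tested as an interaction. No synthetase was called for HS or for HS+REC, against 1.87% and 1.58% of all genes, by edgeR's quasi-likelihood test. At an unadjusted p under 0.05 there were 5 of 36 for each, where 15.2% and 13.6% of all genes were, and DESeq2 called 0 for HS and 2, NARS and GARS, for HS+REC. The difference between the HS+REC effects in siLonp1 and scramble cells was 0.26 (standard error 0.08, adjusted p = 0.121) for GARS, 0.25 (standard error 0.08, adjusted p = 0.113) for NARS and -0.26 (standard error 0.08, adjusted p = 0.112) for TARS2. The 8 cytosolic genes that rose in both arms had a larger estimate with siLonp1 in every case, such as 0.18 and 0.39 for YARS, but these differences did not pass the test. Without HS+REC scramble replicate 2, FARSA was called in the interaction with HS+REC, which was -0.33 (standard error 0.11, adjusted p = 0.147) with all libraries.

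By role, the cytosolic enzymes divide into those bound in the multisynthetase complex and those that work outside it. Of the 8 enzymes of that complex (DARS, EPRS, IARS, KARS, LARS, MARS, QARS and RARS), 0 rose in HS+REC scramble cells, with a median of 0.08, and 3 rose in siLonp1 cells, with a median of -0.00. Of these 3, EPRS, IARS and MARS, the calls of IARS and MARS were lost with library size only (adjusted p = 0.369 and 0.0591). At an unadjusted p under 0.05, 0 of the 8 were higher in scramble cells, as by DESeq2, but without HS+REC scramble replicate 3 MARS and LARS were called higher (0.18 and 0.15, adjusted p = 0.0448 and 0.049). Of the 12 free enzymes 8 rose in scramble cells, with a median of 0.17, and 9 rose and 3 fell in siLonp1 cells, with a median of 0.30. The 8 became 4 without Ctrl scramble replicate 3 or with library size only, when GARS, SARS, VARS and YARS lost their calls. In siLonp1 cells WARS, of the 9, lost its call with library size only (adjusted p = 0.221). Of all genes 21.8% rose and 20.5% fell in scramble cells and 24.6% rose and 26.6% fell in siLonp1 cells. The 3 complex members that rose and the 3 free enzymes that fell in siLonp1 cells are not far from these shares. The median over all genes was -0.00 in both contrasts. KARS, the most abundant of the complex, stood at 800, 814 and 803 CPM in Ctrl and 833, 876 and 852 in HS+REC scramble cells, a change of 0.08 ± 0.05 (standard error) that was not called. AIMP2, a scaffold of the complex, was lower with siLonp1 at -0.18 ± 0.06, -0.25 ± 0.06 and -0.37 ± 0.06 in Ctrl, HS and HS+REC, and the other scaffold genes, AIMP1 and EEF1E1, were not called in these contrasts.

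Another grouping followed the synthetases usually listed as ATF4 targets, 13 of the 20 (AARS, CARS, EPRS, GARS, IARS, LARS, MARS, NARS, SARS, TARS, VARS, WARS and YARS), a list from general knowledge. After HS+REC 8 of the 13 rose in scramble cells (median 0.17) and 12 of 13 in siLonp1 cells (median 0.29), LARS being the exception at 0.02 ± 0.06 (standard error). Here too the 8 became 4 without Ctrl scramble replicate 3 or with library size only. In siLonp1 cells IARS, MARS and WARS were not called either with library size only (adjusted p = 0.369, 0.0591 and 0.221). Of the other 7 cytosolic genes 0 rose in either arm, and 0 were higher at an unadjusted p under 0.05 or by DESeq2, and FARSA, FARSB and HARS fell in siLonp1 cells. Against HS instead of Ctrl, RARS of these 7 rose, by 0.27 in scramble and 0.32 in siLonp1 cells. The list overlaps the grouping by complex, since every enzyme of either part that rose against Ctrl is on it. The groupings cannot be told apart here. The shares of all genes that rose were 21.8% in scramble and 24.6% in siLonp1 cells. With siLonp1, 5 of the 13 were higher and 3 lower in Ctrl, 7 and 2 in HS, and 9 and 3 in HS+REC. Of all genes 26.3% and 22.9%, 28.1% and 26.7%, and 26.8% and 27.3% were higher and lower in these conditions. Of the 6 cytosolic genes shown above with TGATGCAA in the promoter, AARS, CARS, NARS and TARS rose after HS+REC in both arms, and IARS and MARS rose in siLonp1 cells, with 0.06 ± 0.06 and 0.13 ± 0.07 in scramble cells, where they were not called. GARS and SARS, which also rose in both arms, had a promoter in the table without these letters.

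Of 24 ATF4 pathway genes that are no synthetases, 14 rose and 1 fell after HS+REC in scramble cells and 18 rose and 2 fell in siLonp1 cells, with medians of 0.61 and 0.86. By comparison 21.8% and 20.5% of all genes rose and fell in scramble and 24.6% and 26.6% in siLonp1 cells. The largest changes were those of CHAC1, a glutathione-degrading enzyme, at 4.45 and 5.18, DDIT4 at 3.66 and 3.90, SESN2 at 3.48 and 4.37, and ATF3 at 2.41 and 2.76. In HS itself 11 of the 24 rose and 6 fell in scramble cells and 13 rose and 4 fell in siLonp1 cells (all genes, 18.6% and 17.3%, and 20.2% and 22.1%), with CHAC1 up by 3.24 and 4.32, while the 13 synthetases had medians of -0.06 and 0.02. With siLonp1, 9 of the 24 were higher and 7 lower in Ctrl, 12 and 2 in HS, and 13 and 3 in HS+REC (all genes, 26.3% and 22.9%, 28.1% and 26.7%, and 26.8% and 27.3%). ASNS, asparagine synthetase, which makes the amino acid that NARS loads, was higher with siLonp1 by 0.92 ± 0.12, 1.39 ± 0.12 and 1.05 ± 0.12 (standard errors) in Ctrl, HS and HS+REC, whereas SESN2 was lower at -1.02 ± 0.12 in Ctrl.

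Cytosolic and mitochondrial partners for the same amino acid were then set side by side. After HS+REC the estimate of the cytosolic gene was above that of its mitochondrial partner in 13 of 13 pairs in scramble cells and in 11 of 13 in siLonp1 cells. In siLonp1 cells TARS and TARS2 were furthest apart, at 0.57 and -0.51, followed by MARS and MARS2 at 0.23 and -0.77 and by AARS and AARS2 at 0.31 and -0.45. With siLonp1 in Ctrl the cytosolic gene was above in 10 of 13 pairs, in HS and HS+REC in 12 of 13 each. VARS was below VARS2 in all 3 conditions, with VARS at -0.47, -0.61 and -0.39 and VARS2 at -0.29, -0.28 and -0.20 in Ctrl, HS and HS+REC. After HS alone the cytosolic gene was above in 8 of 13 pairs in each arm. These counts are descriptions, since all pairs come from the same libraries.

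Other genes of mitochondrial translation did not all follow the mitochondrial synthetases. MTFMT, which formylates the initiator methionyl-tRNA that MARS2 charges, fell after HS, with changes of -0.46 (standard error 0.07, adjusted p = 1.22e-05) in scramble and -0.77 (standard error 0.07, adjusted p = 6.6e-09) in siLonp1 cells, and after HS+REC, with -0.36 ± 0.07 and -0.64 ± 0.07 (standard errors). It was also lower with siLonp1 in Ctrl, HS and HS+REC, at -0.25 ± 0.07, -0.55 ± 0.07 and -0.53 ± 0.07. GATB, a subunit of the amidotransferase that makes mitochondrial glutaminyl-tRNA, was lower with siLonp1 at -0.29 ± 0.07, -0.24 ± 0.07 and -0.36 ± 0.07. The other subunits, GATC and QRSL1, were not called with siLonp1. With heat GATC was lower after HS in scramble cells (-0.17 ± 0.06) and QRSL1 higher after HS+REC in siLonp1 cells (0.19 ± 0.07). Of the 9 mitochondrial translation factors 5 rose after HS+REC in each arm and 0 fell, where 21.8% and 24.6% of all genes rose. GFM2, which recycles mitochondrial ribosomes, rose by 0.88 (standard error 0.07, adjusted p = 1.42e-10) and 0.93 (standard error 0.07, adjusted p = 3.9e-11), and MTIF2, an initiation factor, by 0.33 ± 0.06 and 0.45 ± 0.06. MRRF, MTRF1 and MTRF1L, which act in termination and recycling, were the other 3, at 0.27, 0.61 and 0.30 in scramble cells. With siLonp1 in Ctrl 4 of the 9 were lower, among them the elongation factors TUFM at -0.23 ± 0.07 and TSFM at -0.24 ± 0.06, and GFM2 and MTRF1L were higher, at 0.25 ± 0.07 and 0.24 ± 0.07, against 22.9% of all genes lower and 26.3% higher.

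In the cytosol, XPOT, which exports tRNA from the nucleus, rose after HS+REC by 0.23 (standard error 0.07, adjusted p = 0.0118) in scramble and 0.36 (standard error 0.07, adjusted p = 0.00017) in siLonp1 cells and was higher with siLonp1 by 0.21 ± 0.07, 0.27 ± 0.07 and 0.34 ± 0.07 (standard errors) in Ctrl, HS and HS+REC. Of the 6 cytosolic elongation factors, EEF1A1, which delivers charged tRNA to the ribosome, was higher with siLonp1 by 0.24 ± 0.06, 0.53 ± 0.06 and 0.26 ± 0.06, as were EEF1B2, EEF1D and EEF1G in each condition. After HS+REC 1 of the 6 rose and 1 fell in each arm, EEF1G at 0.18 and 0.22 and EIF5A at -0.24 and -0.28, no larger a share than that of all genes. Among all contrasts the largest change of a synthetase was that of MARS2 after HS+REC in siLonp1 cells, at -0.77.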

How the data were processed

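The mRNA of SW620 cells was sequenced in 18 libraries, 3 in each of 6 groups (TruSeq stranded mRNA kit, paired ends). The authors aligned reads to hg38 with STAR 2.7.3a and counted them per gene symbol with featureCounts, working in R 3.6.3 and edgeR, and deposited these unnormalised counts. The strand setting, the treatment of reads with several matches and the annotation release are not given in the sources used here, so that genes with overlapping exons are uncertain.

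Library totals were 30815860 to 47279297 counts (median 40847024.5). The 12832 of 26485 genes whose CPM exceeded 1 in 3 or more libraries entered 1 model of the 6 groups over all 18 libraries (edgeR 4.0.16 under R 4.3.3), which had TMM factors of 0.934 to 1.06, a common biological coefficient of variation of 0.0658 and the quasi-likelihood test. Calls needed an FDR of 0.05 or less after Benjamini-Hochberg adjustment over all genes tested, whatever the fold change. Shares of all genes belong to this rule and fit unless another is named beside them. Standard errors are those of the log2 fold change in this fit. The scripts were tested on simulated counts. Replicates of a group differed by more than sampling noise (chi-square divided by its degrees of freedom, 3.48 to 25.8).

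The members, the gene lists and the tests were chosen with earlier results of these data known. All 36 members are reported, with values per library for up to 5 called members of each class with the largest changes in a contrast, and of the ATF4 pathway list the 4 called genes with the largest changes. Groups without overlap are described for genes picked in this way, and the share of all genes without overlap was not computed. Transcript lengths and positions are those of GENCODE v44 for hg38 and promoters those of RefSeq for GRCh38.p14, with older symbols matched to current ones. As alternatives, scaling by library size alone or by RLE size factors, other filters, a replicate block, DESeq2 1.42.0, only the groups compared, an FDR of 0.01, a fold change above 2 and the omission of each library were tried.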

Additional observations from a re-analysis of the deposited data

Results flagged for a closer look

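No synthetase passed the test of a difference between the siRNAs in the response to heat, but several of the genes measured beside them did, by edgeR's quasi-likelihood test of the interaction with Benjamini-Hochberg adjustment over all genes. For HS the effect in siLonp1 cells minus that in scramble cells was 1.08 for CHAC1 (adjusted p = 0.00497), 1.02 for NUPR1 (adjusted p = 0.0199), 0.84 for SESN2 (adjusted p = 0.00537), 0.75 for the chaperone gene HSPH1 (adjusted p = 0.000585) and 0.48 for ATF4 (adjusted p = 0.000907). LONP1 itself gave -0.76 (adjusted p = 0.000468). For HS+REC the difference was 0.89 for SESN2 (adjusted p = 0.00374), 0.87 for CEBPB (adjusted p = 0.0486), 0.67 for VLDLR (adjusted p = 0.0262), 0.60 for HSPH1 (adjusted p = 0.00626), 0.50 for TRIB3 (adjusted p = 0.00872), 0.43 for LONP1 (adjusted p = 0.0321) and 0.32 for CEBPG (adjusted p = 0.0389). The log2 fold changes of SESN2 behind these values were 1.99 and 2.83 after HS and 3.48 and 4.37 after HS+REC, scramble before siLonp1.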

How the results depend on the processing

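Of 165 calls of a synthetase in the 9 contrasts between groups, 0 changed direction under any alternative. DESeq2 kept 164 of them, RLE size factors 163, a limit of CPM above 1 in every library 159, tests without a filter 148, a fit of the compared groups alone 147 and library size only 145. With library size only, 6 cytosolic genes were called for HS in scramble cells in place of 3, and 10, 5 and 7 mitochondrial genes for HS+REC against Ctrl and against HS in scramble cells and against HS in siLonp1 cells, in place of 5, 3 and 4. With no filter, 3 mitochondrial genes were called for HS in scramble cells in place of 5, 3 cytosolic genes for HS in siLonp1 cells in place of 5, and 1 for the interaction with HS+REC. With CPM above 1 in all libraries, 1 and 3 cytosolic genes were called for HS in scramble and siLonp1 cells. DESeq2 called 5 cytosolic genes for HS and 9 mitochondrial genes for HS+REC in scramble cells, and 2 cytosolic genes in the interaction with HS+REC. With only the groups compared, 1 mitochondrial gene was called for HS+REC against HS in scramble cells and 1 cytosolic gene in the interaction with HS. At an FDR of 0.01 the cytosolic counts were 0 and 2 for HS in scramble and siLonp1 cells and 5 for HS+REC in scramble cells, and the mitochondrial counts 2 for HS and 1 for HS+REC against HS in scramble cells. A fold change above 2 left 0 synthetases in every contrast, and the share of all genes past that limit is not given here. Leaving out each library in turn, the cytosolic counts ran from 0 to 5 and from 2 to 5 for HS in scramble and siLonp1 cells, from 4 to 9 for HS+REC in scramble cells and from 0 to 1 for the interaction with HS+REC, and the mitochondrial counts from 2 to 6 for HS and from 1 to 4 for HS+REC against HS in scramble cells. The cytosolic minus the mitochondrial median then ran from 0.31 to 0.39 for HS+REC and from 0.28 to 0.35 for HS+REC against HS in siLonp1 cells, from 0.26 to 0.35 for siLonp1 in HS+REC, and from 0.085 to 0.17 for the interaction with HS+REC. Libraries with the same replicate number shared only a number, since their correlations of deviations from the group means ran from -0.38 to 0.46 (10 of 45 over 0.1) and 6 of 18 libraries were closest to their own number. With the replicate number as a block 162 of the 165 calls were kept and those of IARS2 for HS in scramble cells, VARS for HS+REC in scramble cells and LARS2 for siLonp1 in HS were not (adjusted p = 0.062, 0.05 and 0.0589), with 3 cytosolic and 4 mitochondrial genes called for HS in scramble cells. The cause of these changes was not tested. All 36 synthetases passed the filter at this depth, and the number of libraries limits how small an interaction can be called.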
